A study of Mus musculus with 4 samples.

Results

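The genes for G proteins, adrenergic receptors and cAMP signalling were examined in the ventricle of mice that overexpress serum response factor (SRF), which acts through CArG boxes to drive muscle, cytoskeletal and immediate early genes. A gene was included when its probe set carried a single symbol that began with Gna, Gnb, Gng, Rgs, Adra, Adrb, Adcy, Pde, Prkar, Prkac or Grk, with Gnas and Adcyap1 left out, and the brightest probe set stood for each gene. This gave 68 of the 8251 named genes on the array, measured by 95 probe sets. The samples were 2 arrays of ventricle from non-transgenic mice and 2 arrays of ventricle from transgenic mice, all at 6 months of age. The transgene raised SRF moderately and in the heart alone, per the series title; its promoter, the mouse strain, the founder lines and any pooling of hearts were not given in the sources used here. No label states that the arrays are of separate animals, and p values therefore measure only the spread between these arrays, which may be technical.

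Heterotrimeric G proteins, made of an alpha subunit and a beta-gamma pair, carry signals from receptors in the cell membrane. In the heart, catecholamines acting on beta-adrenergic receptors drive adenylyl cyclase through the stimulatory alpha subunit. The cAMP it makes activates protein kinase A (PKA), which raises the force and rate of contraction. Inhibitory alpha subunits oppose the cyclase, Gq and G11 act on phospholipase C, and G12 and G13 form a further class of alpha subunits. The signal is ended by RGS proteins, which speed GTP hydrolysis, by receptor kinases (GRKs), which mark active receptors for arrestin, and by phosphodiesterases, which break down cyclic nucleotides.

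Of the 68 genes 4 passed the test, namely 1 of 8 alpha, 2 of 5 beta and 1 of 4 gamma subunit genes tested. The beta subunit gene Gnb3 and the alpha subunit gene Gna12 fell, and the gamma subunit gene Gng10 and the beta subunit gene Gnb2 rose. Of the 68 members 47 were bright enough to be tested and 21 were not. In limma, with p values adjusted by Benjamini-Hochberg over all 7453 tested probe sets, 2 of the 47 rose, 2 fell and 43 missed the threshold. That is 8.51% of the tested members, beside 7.93% of all tested probe sets (4.07% higher and 3.86% lower), so the share was near the background. After centring each array on its median, 3 members rose and 1 fell, while over all probe sets 303 higher and 288 lower became 397 and 197. An unadjusted p below 0.05 was reached by 11 of the 47 members (23.4%), beside 24.2% of all probe sets. The median log2 change of the tested members was 0.09, beside -0.01 for all probe sets. Median centring gave 0.17, beside 0.07 for all probe sets. The sign of the member median turned without non-transgenic replicate 2 (-0.04) or transgenic replicate 2 (-0.0065). It also turned with no filter (-0.025 over all 68 members, beside -0.05 for all probe sets). In all, 39 of the 47 changed by less than 0.5 on the log2 scale.

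**Figure D1:**
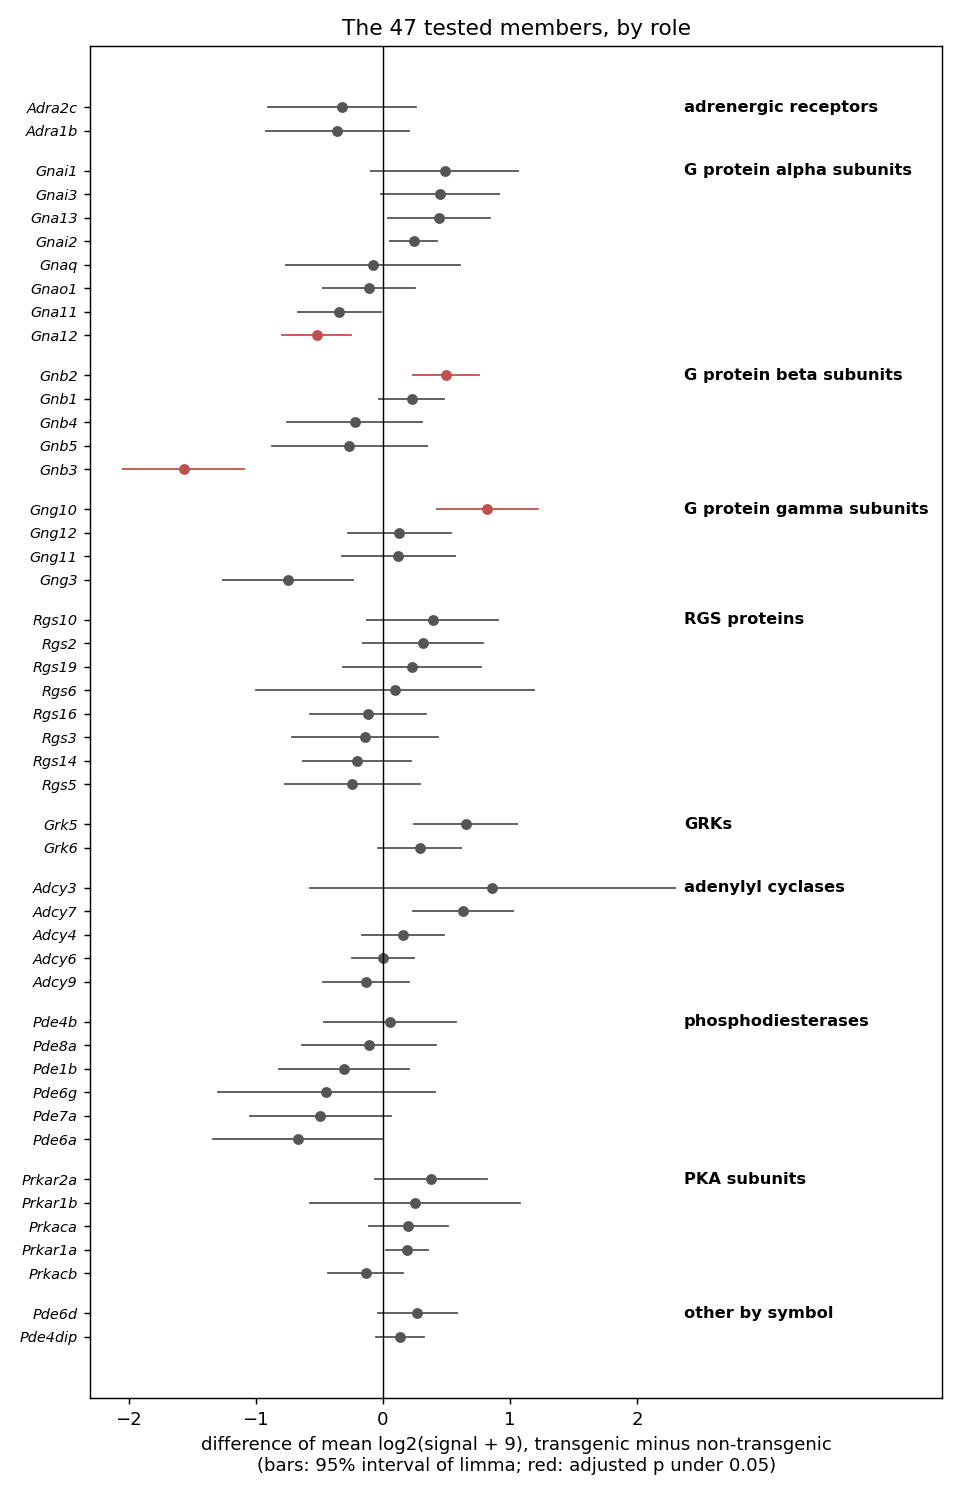
Difference of mean log2(signal + 9), transgenic minus non-transgenic, for the 47 tested members grouped by role; points are fitted differences and bars are 95% intervals of limma, with the 4 genes past the adjusted threshold in red. Gnb3 lies farthest from 0 at -1.57, and the interval of Adcy3 is the widest.

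Cardiomyocyte transcripts were present at high signal on every array, and marker lists of several cell types differed between the groups. Of 10 fibroblast markers 9 were called higher, and the other, Pdgfra, was lower without passing (log2 change -0.51). Their summed signal was 7351 to 7494 on the non-transgenic and 12295 to 12746 on the transgenic arrays. That of 10 macrophage markers was 2215 to 2501 against 3708 to 3747 (4 of 8 tested higher). The 9 measured cardiomyocyte markers summed to 80744 to 82378 against 63193 to 64603 (6 of 9 lower, but 2 after median centring and 1 after quantile normalization), and 8 hepatocyte markers to 2210 and 4116 against 137 and 179 (6 of 7 tested lower). Atrial markers were higher in transgenic ventricle (2 of 3 tested, summed signal 818 to 976 against 2809 to 3137). Calls were 2 of 8 higher for smooth muscle and pericytes, 1 higher and 1 lower of 9 for endothelium, 1 of 6 higher for nerve and 2 of 4 lower for adipocytes; lymphocyte, neutrophil and skeletal muscle lists had 0. When the variance was not modelled on signal, calls were 4 of 10 for fibroblast, 4 of 7 for hepatocyte, 1 of 3 for atrial and 0 for macrophage and cardiomyocyte markers. Whether these shifts have a part in any result below was not tested, and in whole tissue fewer cells of a type and less RNA per cell cannot be told apart.

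Adrenergic receptors were represented by 2 members, and neither passed limma (0 with an unadjusted p below 0.05). Adra1b, a Gq-coupled alpha-1 receptor of cardiomyocytes and vessels, gave signals of 60.3 and 56.7 on the non-transgenic and 52.5 and 36.1 on the transgenic arrays. Adra2c, an alpha-2 receptor that restrains noradrenaline release from sympathetic nerve endings, gave 47.2 and 37.4 against 32.0 and 31.9. For both genes the transgenic arrays lay below the non-transgenic ones, as in 28.1% of all tested probe sets, but neither interval left out 0. The log2 change was -0.36 for Adra1b (95% interval -0.92 to 0.21; adjusted p = 0.409 in limma) and -0.32 for Adra2c (-0.90 to 0.26; adjusted p = 0.475). Adrb1, Adra1a and Adra1d were not analysed here.

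Among the alpha subunits, Gna12 fell, and it was the 1 member of the 8 tested that passed. Gna12 is the alpha subunit of G12, which couples receptors to the actin cytoskeleton. Its signal was 794 and 899.8 in non-transgenic ventricle and 628.5 and 546.4 in transgenic ventricle. The groups did not overlap, as in 55.9% of all tested probe sets, and the change was -0.52 ± 0.12 on the log2 scale (SE; 1.44-fold; adjusted p = 0.0406 in limma). A second probe set for Gna12 gave 251.4 and 258.9 against 171.8 and 182.6, a log2 change of -0.50 that missed the threshold (adjusted p = 0.0626 in limma). Both probe sets therefore gave a fall of like size. Under median centring the call of Gna12 ended (adjusted p = 0.0827 in limma), and it held without transgenic replicate 1 but not without non-transgenic replicate 1 (0.0535), non-transgenic replicate 2 (0.125) or transgenic replicate 2 (0.138). Gna13, the close relative of Gna12, had values on the other side, at 88.8 and 96.2 against 141 and 117.8. Its log2 change of 0.44 ± 0.17 did not pass (adjusted p = 0.169 in limma).

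None of 3 inhibitory alpha subunit genes passed the test. Gnai2, the main inhibitory alpha subunit of the heart, gave 3173 and 3527 against 4069 and 3846. Its change of 0.24 ± 0.08 on the log2 scale had an adjusted p of 0.114 in limma, and 0.0352 after quantile normalization. It missed the threshold in the other 12 of 13 alternatives. Its other 2 tested probe sets gave -0.07 and -0.05, with arrays that overlapped, so no direction can be given for Gnai2. Gnai3 gave 284.6 and 191.7 against 297.7 and 347.8 (log2 change 0.45, adjusted p = 0.221 in limma). Gnai1 was dim, at 33.3 and 27.1 against 43.2 and 48.4 (0.49, adjusted p = 0.273 in limma). For Gnai3 and for this probe set of Gnai1 the groups did not overlap, with the transgenic arrays higher, as in 27.8% of all tested probe sets. A dimmer, untested probe set of Gnai1 overlapped (14.1 and 10.2 against 20.2 and 6.4). Gnao1, the alpha subunit of Go that is abundant in neurons and present in atrial muscle, overlapped between the groups (198.1 and 167.7 against 158.2 and 179.7). Its other tested probe sets gave -0.28, with groups that did not overlap, and -0.02, with groups that did. Neither of them passed.

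Gnaq and Gna11 encode the alpha subunits of Gq and G11, which link alpha-1 adrenergic, angiotensin and endothelin receptors to phospholipase C. Gnaq was dim and overlapped, at 39.5 and 28.6 against 25.9 and 37.9 (log2 change -0.08, 95% interval -0.76 to 0.60), and its sign turned under median centring and quantile normalization. The probe sets of Gna11 disagreed. The brighter set, used here, gave 186.4 and 176.4 against 141.9 and 140.6, a change of -0.34 ± 0.14 that did not pass (adjusted p = 0.192 in limma). The dimmer set gave 30.7 and 35.3 against 123.2 and 71.9, a change of 1.30 ± 0.28 that passed in the opposite direction (adjusted p = 0.0355 in limma). No direction can therefore be given for Gna11.

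**Figure D2:**
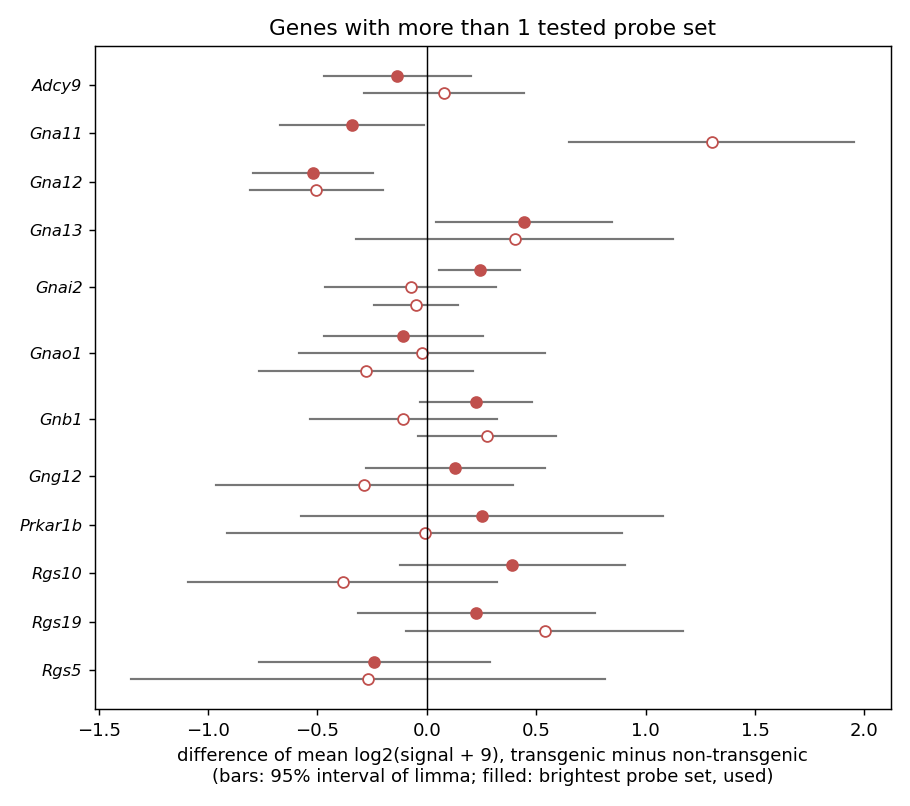
Difference of mean log2(signal + 9), transgenic minus non-transgenic, for each tested probe set of the 12 members with more than 1; filled points are the brightest probe set of a gene, open points the others, and bars are 95% intervals of limma. In 5 of the 12 genes, Gna12 among them, all tested probe sets had the same sign, and in Gna11 the intervals did not meet.

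The beta subunits held the largest change of the whole set. Gnb3, a beta subunit best known from cone photoreceptors and also made in other tissues, gave 196 and 209.4 in non-transgenic ventricle and 75.6 and 51.2 in transgenic ventricle. Its signal fell by 1.57 ± 0.20 on the log2 scale, 2.97-fold (adjusted p = 0.00716 in limma), and it was the 1 tested member to change by 1 or more. Gnb3 passed without any single array, with adjusted p from 0.00192 to 0.0290 in limma. Gnb3 lost its call when the variance was not modelled on signal (adjusted p = 0.0516 in limma).

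Gnb2, a broadly expressed beta subunit, rose where Gnb3 fell. Its signals were 536.4 and 604.8 against 845.7 and 770.3, so every transgenic array was above every non-transgenic one. The rise was 0.50 ± 0.11 on the log2 scale, 1.41-fold (adjusted p = 0.0392 in limma). This call ended when any 1 of the 4 arrays was left out (adjusted p from 0.0506 to 0.168 in limma). Gnb1, another broadly expressed beta subunit, gave 466.5 and 521.5 against 566.8 and 590.7 (0.23 ± 0.11, adjusted p = 0.253 in limma). Its other tested probe sets gave 0.28 and -0.11, the latter with arrays that overlapped. Gnb4 (log2 change -0.22) and Gnb5 (-0.26), which pairs with the R7 class of RGS proteins, overlapped between the groups.

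Of 4 tested gamma subunits, which anchor the beta-gamma pair to the membrane, Gng10 rose and 3 did not pass. Gng10, a widely expressed subunit, gave 128.1 and 98 in non-transgenic and 209.1 and 201.5 in transgenic ventricle. Its rise of 0.82 ± 0.17 on the log2 scale, 1.77-fold, had an adjusted p of 0.0322 in limma. The call held without non-transgenic replicate 1 (0.0264) and ended when any of the other arrays was left out (0.0766 to 0.109). Gng3, a gamma subunit abundant in neurons, lay on the other side, at 123.4 and 103.7 against 76.2 and 53.3. Its log2 change of -0.75 ± 0.22 did not pass (adjusted p = 0.0894 in limma). Gng11 and Gng12 overlapped between the groups (log2 changes 0.12 and 0.13). A dimmer tested probe set of Gng12 had the other sign (-0.29) and overlapped as well.

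**Figure D3:**
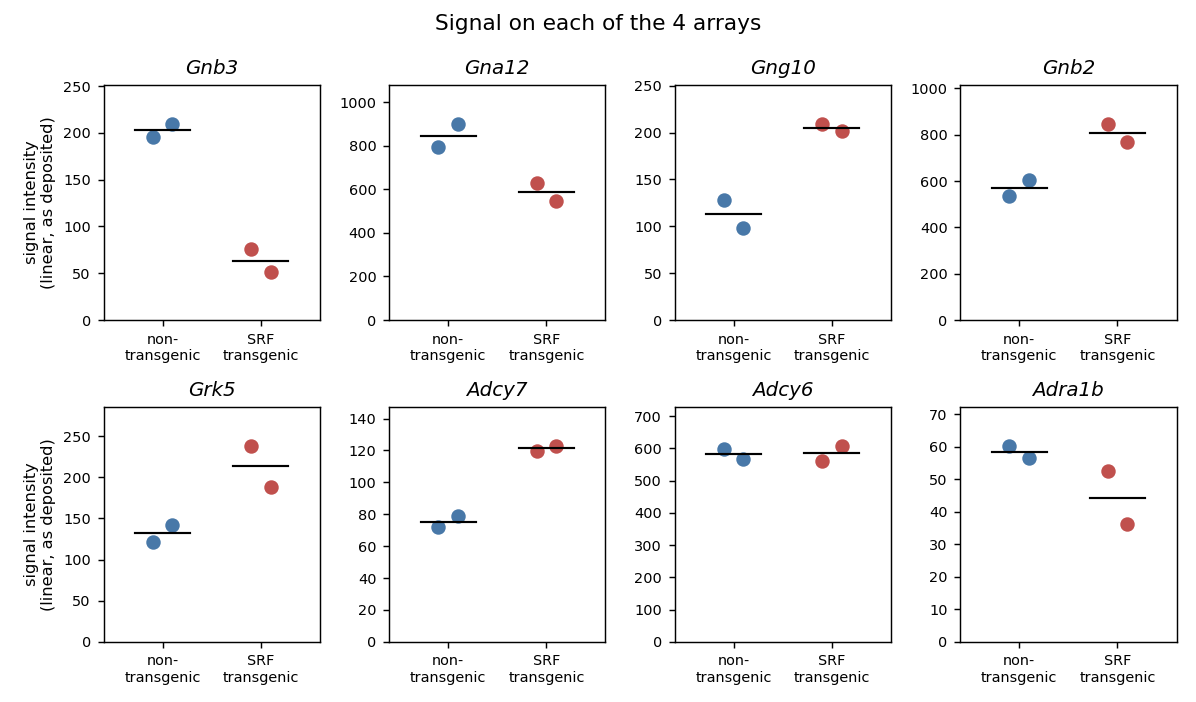
Signal intensity as deposited (linear axes from 0) on each of the 4 arrays for 8 members; dots are arrays and horizontal lines are means of 2. Gnb3 and Gna12 lie lower and Gng10 and Gnb2 higher on both transgenic arrays, Grk5, Adcy7 and Adra1b are separated without passing the adjusted threshold, and Adcy6 overlaps.

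The RefSeq promoter table (GRCm38.p6), which gives the 250 bases before and 50 bases after each start, held 52 of the 68 members, among them Gna12, Gnb2 and Gng10. The called gene Gnb3 had no entry, so its promoter was not searched. The windows were searched on both strands for the CArG box, which SRF binds, for the full cAMP response element TGACGTCA and for its short site TGACG, which the full element contains. A CArG box stood in 0 of 88 windows of the members, beside 1.63% of all 32851 windows. The full element stood in 1 of the 52 members, Prkar1a (1.92%), beside 2.03% of all genes in the table. The short site stood in 17 of the 52 (32.7%), beside 23.0% of all genes, but members have more windows per gene, and per window the shares were 21.6% (19 of 88) and 20.8%. These are matches of letters and say nothing of binding. The stretches before the start of the called members Gna12, Gnb2 and Gng10 are shown because SRF was the factor raised, with the 30 bases around the full element of Prkar1a. Capitals mark TGACGTCA in Prkar1a and, in Gnb2, the part of a short site (in its reverse form CGTCA) that lies before the start; the other stretches had no match.
Gna12, minus strand, chr5:140830432-140830681: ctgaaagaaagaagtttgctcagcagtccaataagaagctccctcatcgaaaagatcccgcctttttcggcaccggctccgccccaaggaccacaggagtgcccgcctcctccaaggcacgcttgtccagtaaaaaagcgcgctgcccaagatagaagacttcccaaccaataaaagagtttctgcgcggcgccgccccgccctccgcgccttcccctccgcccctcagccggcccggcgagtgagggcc
Gnb2, minus strand, chr5:137533307-137533556: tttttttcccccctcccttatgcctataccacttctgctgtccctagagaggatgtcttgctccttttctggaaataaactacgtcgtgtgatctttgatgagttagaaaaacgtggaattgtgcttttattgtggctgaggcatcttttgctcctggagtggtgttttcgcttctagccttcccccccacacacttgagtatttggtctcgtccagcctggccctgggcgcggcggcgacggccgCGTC
Gng10, plus strand, chr4:59034906-59035155: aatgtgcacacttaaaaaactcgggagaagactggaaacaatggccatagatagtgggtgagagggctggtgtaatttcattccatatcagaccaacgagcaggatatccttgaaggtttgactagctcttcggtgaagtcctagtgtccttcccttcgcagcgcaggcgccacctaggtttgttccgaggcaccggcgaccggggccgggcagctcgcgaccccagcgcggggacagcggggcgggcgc
Prkar1a, plus strand, chr11:109650889-109650918: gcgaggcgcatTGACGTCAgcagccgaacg

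None of 8 tested RGS genes passed limma, and 0 had an unadjusted p below 0.05. Rgs2, which limits Gq signalling and is a regulator of vascular tone, gave 123.9 and 95.9 against 157.4 and 120.5, so that the arrays overlapped (log2 change 0.31, 95% interval -0.16 to 0.78). Rgs5, a gene of pericytes and vascular smooth muscle, gave 90.7 and 107.7 against 100.4 and 67.3 and overlapped as well (-0.24, -0.77 to 0.29). Rgs3 (log2 change -0.14), Rgs16 (-0.11) and Rgs19 (0.23) did the same. Rgs6, which together with Gnb5 shortens muscarinic signalling in the sinoatrial node, was scattered within each group (52.1 and 21.7 against 22.4 and 59.1). The groups did not overlap for Rgs14 (108 and 103.5 against 80.7 and 102) and Rgs10 (45.6 and 62.3 against 70.3 and 75.5), in opposite directions. Those of Rgs14 nearly met (95% interval of the log2 change -0.63 to 0.23). That is 2 of 8 tested RGS genes (25.0%), beside 55.9% of all tested probe sets. A second probe set of Rgs10 had the other sign (0.39 and -0.38).

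Both receptor kinases had higher signal on each transgenic array, as in 27.8% of all tested probe sets. Neither passed limma (1 of them with an unadjusted p below 0.05). Grk5, a kinase of cardiac muscle that phosphorylates agonist-bound receptors, gave 121.7 and 142.5 against 238.3 and 188.4. Its log2 change of 0.65 ± 0.17 (1.57-fold) had an adjusted p of 0.0675 in limma, and 0.0425 when the lowest 60% of probe sets were left out. It missed the threshold in the other 12 of 13 alternatives. Grk6 gave 164.2 and 161.3 against 190.5 and 212.4 (0.29 ± 0.14, adjusted p = 0.251 in limma). The interval for Grk5 ran from 0.25 to 1.05 and so left out 0 before adjustment. Grk2 was not analysed here.

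Of 5 tested adenylyl cyclases 0 passed limma and 1, Adcy7, had an unadjusted p below 0.05. Adcy6, with Adcy5 the main cyclase of cardiomyocytes, gave 599.4 and 568.4 against 561.5 and 607.6. Its log2 difference was 0.00 with an interval from -0.24 to 0.24, which leaves room for a change of up to about that size in either direction. Adcy7, a cyclase found in many blood and immune cells, gave 71.8 and 78.8 against 119.8 and 122.9, a clear gap between closely paired arrays. The difference of 0.63 ± 0.17 missed the threshold (adjusted p = 0.0677 in limma), and passed after median centring (0.0487) and under the stricter filter of 60% (0.0498). It missed the threshold in the other 11 of 13 alternatives. The macrophage markers given above were higher on the same transgenic arrays, and their part in the value of Adcy7 was not tested. Adcy4 (190 and 217 against 223 and 233.1) and Adcy9 (166.6 and 165.4 against 158.2 and 143.1) had small differences of 0.16 and -0.13 on the log2 scale. A second tested probe set of Adcy9 had the other sign (0.08).

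Adcy3, a cyclase known from olfactory neurons, showed how far 1 array can carry a value. It is named after its values were seen. Its signals were 19.2 and 115.4 in non-transgenic and 115.7 and 83.9 in transgenic ventricle, so the non-transgenic arrays themselves differed more than the groups. With all arrays the log2 change was 0.86 ± 0.61 (adjusted p = 0.434 in limma). Without non-transgenic replicate 2 it was 1.93 (adjusted p = 0.0162), and without non-transgenic replicate 1 it was -0.21.

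Phosphodiesterase genes had 0 of 6 tested past limma and 0 with an unadjusted p below 0.05. Log2 changes were below 0 in 5 of the 6, with a median of -0.37, beside -0.01 for all probe sets. Of these, Pde6a and Pde6g passed the filter on mean signal only through their non-transgenic arrays. Their place in this count therefore rests on the group where they were high. The filter left out 4 phosphodiesterases, Pde1a and Pde9a with values above 0 (0.34 and 0.40) and Pde1c and Pde6b below 0 (-1.26 and -0.23). With 1 array left out, 4 to 6 of the 6 were below 0, and the median was -0.12 without non-transgenic replicate 2 and -0.20 without transgenic replicate 1. These genes were dim, and none was left under the filter of 60%. Pde7a, a cAMP-specific enzyme, gave 47.2 and 43.8 against 30.1 and 29.4 (log2 change -0.49, adjusted p = 0.255 in limma). Pde1b, which calcium and calmodulin activate, gave 54.2 and 65.9 against 44.1 and 49.4 (-0.31). In these and in Pde6a, the catalytic subunit of rod photoreceptors (53.6 and 44.2 against 21.1 and 35), the groups did not overlap. Pde4b, a cAMP-specific enzyme that restrains beta-adrenergic signalling in the heart, overlapped (61.2 and 54.2 against 52.1 and 69.3), as did Pde8a (-0.11) and Pde6g (-0.44). Pde3a, Pde4d and Pde5a were not analysed here.

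Of 5 tested subunits of PKA, 0 passed limma and 1 had an unadjusted p below 0.05. That was Prkar1a, the ubiquitous regulatory subunit whose promoter stretch is shown above, at 2822 and 2663 against 3170 and 3092 (0.19 ± 0.07, adjusted p = 0.155 in limma). The catalytic subunit gene Prkaca gave 1066 and 823 against 1118 and 1039, and Prkacb gave 372.6 and 331.3 against 305 and 333.5. Both overlapped, and their 95% intervals on the log2 scale were -0.11 to 0.51 and -0.43 to 0.16. Prkar2a, the regulatory subunit that anchoring proteins hold at the sarcoplasmic reticulum and T-tubules, gave 106.7 and 82.1 against 116.4 and 133.2 (0.38, adjusted p = 0.264 in limma). Prkar1b overlapped (0.25).

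Besides these, 4 members matched the rule by their letters but are of another kind. Pde4dip, a scaffold called myomegalin that is abundant in muscle, gave 2917 and 2644 against 2940 and 3160 (0.13, adjusted p = 0.358 in limma). Pde6d, a carrier of prenylated proteins, gave 186.4 and 205.2 against 230.1 and 246.4 (0.27, adjusted p = 0.261). The receptor of the peptide PACAP, Adcyap1r1, and the antisense RNA Gnasas1 were too dim to test. Gnat1, Gnat2, Gnaz, Gna14, Gna15, Gng2, Gng4, Gngt2, Adcy2, Adcy8, Pde1a, Pde1c, Pde6b, Pde9a, Rgs4, Rgs7, Rgs8, Rgs9 and Rgs11 were also below the filter. The mean signals of these 21 ran from 2.28 to 30.3 over the 4 arrays, and no array exceeded 47.7. Among them, Rgs4, an inhibitor of Gq and Gi signalling, was listed at 1.0 and 5.8 against 10.3 and 11.5. Pde1c lay the other way, at 23.3 and 11.4 against 0.6 and 2.9. These genes were left out before the test, so no call could be made for them, and such dim signals give no direction.

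Among other genes of the pathway, some receptors of other ligands rose. Of 28 such receptors measured 11 were tested, of which 3 rose, 0 fell and 8 did not pass limma. The share called was 27.3%, beside 4.07% of all probe sets called higher. With no filter 10 of the 28 were higher and 18 lower (median log2 change -0.15), and 1 passed. F2r, the thrombin receptor PAR1, gave 411.3 and 398.4 against 704 and 632.9 (0.71 ± 0.11, 1.64-fold, adjusted p = 0.0129 in limma). Bdkrb1, the inducible B1 receptor for kinins, rose by 1.28 ± 0.25, from 24.9 and 32.9 to 70.8 and 95.3 (adjusted p = 0.0262). It passed the filter on mean signal only through its transgenic arrays, so its place among the tested receptors rests on the group where it was high. Lpar1, a receptor for lysophosphatidic acid, rose by 0.88 ± 0.20, from 40.6 and 38.8 to 74.4 and 86.9 (adjusted p = 0.0468). These receptors couple to Gq, to Gi and, in the case of F2r and Lpar1, to G12 and G13. The calls of F2r ended without transgenic replicate 1 (adjusted p = 0.0548 in limma), of Bdkrb1 without 3 of the 4 arrays (up to 0.147; it held without non-transgenic replicate 2) and of Lpar1 without any 1 of them (up to 0.239). All 3 calls ended when the variance was not modelled on signal (F2r at 0.0806), and those of Bdkrb1 and Lpar1 also with no filter. Of 10 fibroblast markers 9 were called higher on the same arrays, and their part in these rises was not tested. Hrh2, the Gs-coupled histamine receptor of the heart, gave 63.4 and 53.7 against 27.3 and 27.8 and missed the threshold (adjusted p = 0.0686 in limma). It passed the filter on mean signal only through its non-transgenic arrays.

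Pkia, the heat-stable inhibitor that binds the free catalytic subunit of PKA, fell. Its signal was 490.2 and 534.9 in non-transgenic and 247.9 and 182.8 in transgenic ventricle, a change of -1.23 ± 0.16 on the log2 scale (2.35-fold; adjusted p = 0.00771 in limma) that passed without any 1 array and missed when the variance was not modelled on signal (0.0657). It was the 1 called gene of 11 tested among anchoring proteins, inhibitors and effectors of cAMP (9.09%, beside 7.93% of all tested probe sets). The related inhibitor Pkig gave 1510 and 1721 against 1339 and 1451 (-0.21, adjusted p = 0.241 in limma). Maoa, the monoamine oxidase that breaks down noradrenaline and serotonin, rose from 52.4 and 55.3 to 151.2 and 150.3. Its rise of 1.35 ± 0.17 (2.54-fold, adjusted p = 0.00581 in limma) passed in every setting tried. Maoa was the 1 called gene of 7 tested for catecholamine synthesis, transport and breakdown (14.3%, beside 7.93% of all tested probe sets). Th, the first enzyme of catecholamine synthesis, gave 52.6 and 48.4 against 42.8 and 55 and overlapped.

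Among genes that PKA acts on to change contraction and fuel supply, some fell. Of 14 tested 5 fell (beside 3.86% of all probe sets called lower), 0 rose and 9 did not pass limma, and the median log2 change was -0.34, beside -0.01 for all probe sets. Those that fell were Tnni3, Fxyd1 and Atp2a2, the muscle glycogen phosphorylase Pygm (3578 and 3482 against 2726 and 2671) and Rrad, a small GTPase that restrains the L-type calcium channel (2749 and 2881 against 2101 and 2175). After quantile normalization 2 were called (Pygm and Rrad), with no filter 1 (Tnni3) and with no variance trend 0. Leaving out an array gave 2 (without non-transgenic replicate 1), 3 (without non-transgenic replicate 2) or 1 (without transgenic replicate 1 or 2), with Tnni3 called each time. The summed cardiomyocyte markers, which share Tnni3, Atp2a2 and Ryr2 with this list, were lower on the same arrays, and their part was not tested. Among arrestins and receptor scaffolds 0 of 8 tested passed limma (2 with an unadjusted p below 0.05). The same held for effectors of Gq, G12 and G13 (0 of 12; 3) and for phosphatases that oppose PKA (0 of 16; 3).

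**Figure D4:**
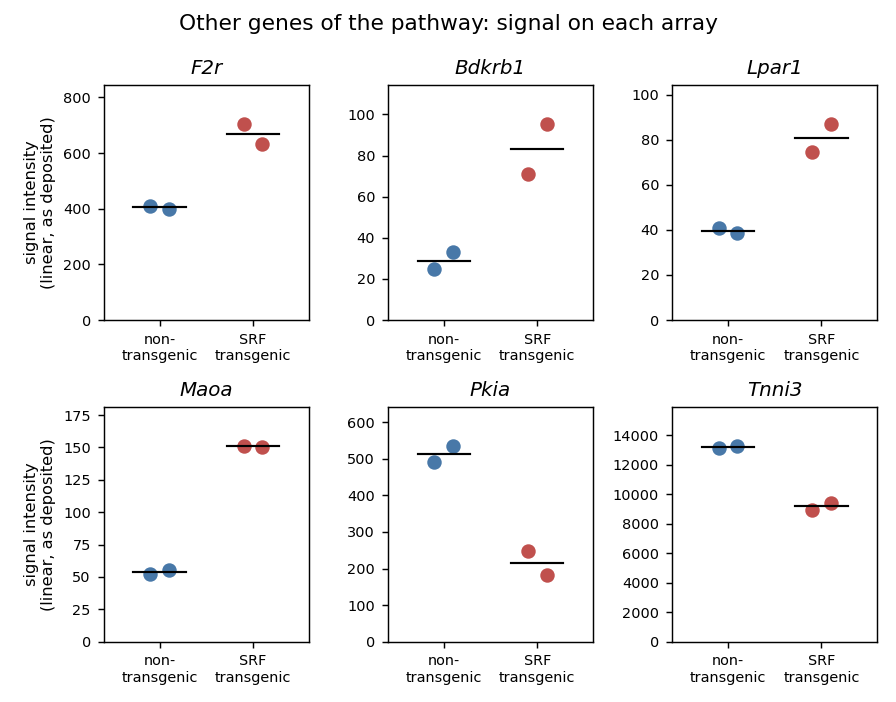
Signal intensity as deposited (linear axes from 0) on each of the 4 arrays for 6 genes of the pathway outside the set; dots are arrays and horizontal lines are means of 2. F2r, Bdkrb1, Lpar1 and Maoa lie higher and Pkia and Tnni3 lower on both transgenic arrays.

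The 4 calls within the set differed in how much they rested on the settings. Gnb3 kept its call in 12 of 13 alternatives, Gng10 in 8, and Gna12 and Gnb2 in 7 each. Without the filter on dim probe sets, Gnb3 alone passed of all 68 members, and when the variance was not modelled on signal 0 of 47 did (12 had an unadjusted p below 0.05 in limma). No setting turned the sign of these 4.

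**Figure D5:**
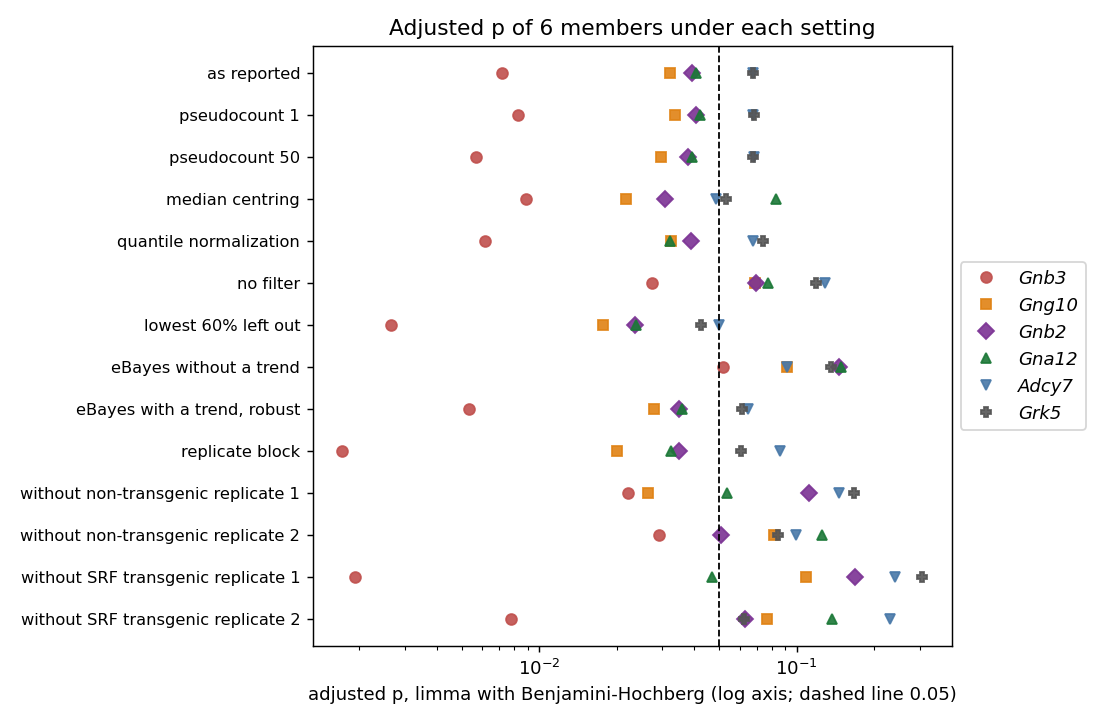
Adjusted p of limma with Benjamini-Hochberg adjustment (log axis) for 6 members as reported and under each of 13 alternatives; each symbol is a gene, and the dashed line is the threshold of 0.05. Gnb3 lies left of the line in all rows but that without a trend of variance, and Grk5 and Adcy7 lie near it, mostly on the right.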

How the data were processed

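The files held 1 deposited intensity for each probe set on each array, linear by the look of its values. Per the labels' protocols, column-purified total RNA was labelled with biotin by the Affymetrix procedure. The software that made the signals is not given in the sources used here. Array means without the top and bottom 2% lay between 148.7 and 148.9, and medians between 49.0 and 53.9. Of 12488 probe sets, 66 controls were dropped. The platform annotation gave 1 symbol to 10833, several to 396 and none to 1193, and all 68 member symbols were found in RefSeq.

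Values were taken as log2(value + 9), where 9 is the rounded 20th percentile, and the lowest 40% of probe sets by mean were left out. The remaining 7453 were fitted with lmFit and eBayes (variance modelled on signal) in limma 3.58.1 (R 4.3.3). Tests were two-sided, adjusted by Benjamini-Hochberg over all of them, with a threshold of 0.05. The prior carried 5.05 and the design 2 degrees of freedom, and the number of arrays limits the precision. Errors of log2 changes are moderated standard errors, and the scale understates changes of dim genes. The fit was tested on simulated data.

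The members and lists were chosen with earlier results of these data known. The naming rule took members past the threshold, the 12 with the smallest p in each direction and a set of members known for the heart; further members are named to account for the whole set, and further pathway genes (Hrh2, Pkig and Th) were added after their values were seen. Alternatives were other pseudocounts (1 and 50), scalings, filters and variance models, a replicate block, any probe set of a gene, and each array left out, where the lone array of a group is assumed to vary like the others.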

Additional observations from a re-analysis of the deposited data

How the results depend on the processing

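Counts of members past the threshold (2 higher and 2 lower) were 3 and 1 after median centring, 0 and 1 with no filter, 4 and 2 with the lowest 60% left out, and 0 and 0 in eBayes without a trend. Over all probe sets (303 and 288) the counts were 172 and 157 with no filter, 44 and 34 without a trend, and 397 and 197 after median centring. With 1 array left out, members ranged from 0 to 1 higher and 1 to 2 lower, and all probe sets from 125 to 232 higher and 158 to 191 lower. Counting a gene when any of its probe sets passed gave 3 higher, with Gna11 added, and 2 lower. The labels share replicate numbers, but same-numbered arrays did not deviate together (correlation -0.06), and nothing states that they were paired. The replicate block left the same 4 members called (348 higher and 345 lower over all probe sets), and among the pathway genes named as called it ended the call of Lpar1 (adjusted p = 0.0553 in limma).

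Signs turned only in members that did not pass. After median centring Gnaq had a log2 change of 0.0019, and after quantile normalization Gnaq had 0.036 and Adcy6 -0.032. With 1 array left out, log2 changes ran from -0.21 to 1.93 for Adcy3, -0.055 to 0.057 for Adcy6, -0.22 to 0.0075 for Gnao1, -0.29 to 0.14 for Gnaq and -0.54 to 0.018 for Gnb5. They ran from -0.13 to 0.38 for Gng11, -0.039 to 0.30 for Gng12, -0.12 to 0.23 for Pde4b, -0.31 to 0.095 for Pde8a and -0.27 to 0.77 for Prkar1b. They ran from -0.27 to 0.041 for Rgs16, -0.072 to 0.53 for Rgs19, -0.46 to 0.17 for Rgs3, -0.50 to 0.020 for Rgs5 and -0.46 to 0.65 for Rgs6. The cause of these changes was not tested. Dim signals limit the phosphodiesterases and the 21 members that were not tested.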
